A study of Mus musculus with 3 samples.

Results

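The proteasome is described here through 38 genes: 14 subunits of the 20S core, 19 subunits of the 19S cap that covers its ends, and 5 assembly factors. The genes were chosen by name, and all 38 are among the 31053 genes of the 3 count tables. Their RNA was followed across 6 cell classes of the hippocampus, namely endothelial cells, astrocytes, microglia, ependymal cells, pericytes and OPCs (oligodendrocyte precursor cells). All cells came from wild-type C57BL/6 mice with an age label of 2 years, and the labels give no other genotype or treatment. RNA of single cells was counted in 3 libraries, which are replicates 1, 2 and 3 of a single group, numbered in the order of their records. The study used 6 hippocampi, and the labels do not tie animals to libraries, so the spread between libraries may be technical in part. The title of replicate 3 gives 25 months, while its age label is that of the others. Cells were freed with papain and depleted of myelin before capture, and what either step removed from each class is not known.

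The proteasome degrades proteins that carry ubiquitin chains. The core is a barrel of 4 rings, with outer rings of alpha subunits that gate the entrance and inner rings of beta subunits, of which Psmb5, Psmb6 and Psmb7 cut peptide bonds. The cap binds ubiquitin, cuts it off, unfolds the substrate with a ring of ATPases and feeds it into the core. Chaperones build the core, and in immune and cytokine-exposed cells the catalytic subunits can be replaced by Psmb8, Psmb9 and Psmb10, which form the immunoproteasome and favour peptides for MHC class I. The transcription factors Nfe2l1 and Nfe2l2 act through antioxidant response elements, and Nfe2l1 raises proteasome genes as a set when the proteasome is blocked.

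The upstream sequences of 4 members are shown as examples: the catalytic subunits Psmb5 and Psmb6, which hold a core antioxidant response element, and the lid subunits Sem1 and Psmd8, whose class differences were among the most stable below and which do not hold it. Each is the 250 bases before the start given by RefSeq (GRCm38.p6), on the strand of the gene, with the element TGACNNNGC in capitals where it was found on either strand. The windows are chr14:54617996-54618245 (minus strand) for Psmb5, chr11:70525107-70525356 (plus strand) for Psmb6, chr6:6578659-6578908 (minus strand) for Sem1 and chr7:29180674-29180923 (minus strand) for Psmd8.
Psmb5: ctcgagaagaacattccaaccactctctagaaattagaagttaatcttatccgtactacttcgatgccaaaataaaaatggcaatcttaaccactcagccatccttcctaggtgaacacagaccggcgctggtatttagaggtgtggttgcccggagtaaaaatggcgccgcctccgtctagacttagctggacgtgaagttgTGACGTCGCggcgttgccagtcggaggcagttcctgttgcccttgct
Psmb6: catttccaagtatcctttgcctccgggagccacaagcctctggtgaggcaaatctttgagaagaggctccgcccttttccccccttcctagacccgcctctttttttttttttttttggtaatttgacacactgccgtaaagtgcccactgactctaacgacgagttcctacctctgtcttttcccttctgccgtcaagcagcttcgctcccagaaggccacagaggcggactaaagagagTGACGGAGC
Sem1: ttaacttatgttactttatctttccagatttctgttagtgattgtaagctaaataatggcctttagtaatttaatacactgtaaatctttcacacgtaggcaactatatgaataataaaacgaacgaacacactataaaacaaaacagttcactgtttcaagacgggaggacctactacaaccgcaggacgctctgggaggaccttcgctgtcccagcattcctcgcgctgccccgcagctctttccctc
Psmd8: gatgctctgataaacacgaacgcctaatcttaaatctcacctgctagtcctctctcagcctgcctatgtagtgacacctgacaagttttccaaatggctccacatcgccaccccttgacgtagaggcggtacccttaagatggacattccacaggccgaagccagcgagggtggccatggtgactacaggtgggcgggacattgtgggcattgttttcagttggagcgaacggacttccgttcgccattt
A RefSeq window was found for 31 of the 38 members, and 5 of those genes (16.1%) held the element: Psmb5, Psmb6, Psmc6, Psmd12 and Adrm1. Of all 27025 genes with such a window, 11.5% held it. A match of letters is a description of the sequence and not a binding site.

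The libraries held 7241, 1062 and 6456 barcodes and 45716237, 7185668 and 40377042 UMIs (unique molecular identifiers, each standing for 1 captured RNA molecule) in replicates 1, 2 and 3. A cell was given a class when all 3 markers of that class, and of no other, had a UMI, which placed 8216 cells: 4223 endothelial cells, 1782 astrocytes, 1643 microglia, 248 ependymal cells, 107 pericytes and 213 OPCs. The rule needs every marker to be seen, so the counts are not shares of the tissue. Ependymal cells of replicate 2 numbered 8, fell short of 10 and were left out, so that class has 2 libraries. A fit without replicate 1 or 3 therefore holds 1 ependymal library, which is assumed to vary as the other classes do, and a call lost there does not show that it rested on the library left out. Of 4 further markers per class, all were highest in their own class, except in astrocytes, where 3 of 4 were. The 3 astrocyte class markers summed to 326 to 720 CPM in pericytes, against 12372 to 14664 in astrocytes. No more than 12 barcodes were shared by any pair of libraries. Mitochondrial RNA took 10.1 to 11.8% of UMIs in astrocytes and 1.50 to 4.15% in microglia, and ribosomal protein RNA took 3.88 to 4.52% in astrocytes and 15.4 to 16.2% in microglia.

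The 38 genes together gave 294197 UMIs. Levels are CPM, the UMIs of a gene per 1000000 UMIs of the same class and library. The summed level of the 38 genes was 4758 ± 535 CPM in endothelial cells, 3544 ± 400 in astrocytes and 3442 ± 310 in microglia (SD, n = 3 libraries each). It was 4334 ± 624 in pericytes and 5088 ± 1026 in OPCs (SD, n = 3 each), and 5226 ± 135 in ependymal cells (SD, n = 2). Astrocytes and microglia lay below the other classes in mean, and their values overlapped each other. Replicate 2, the smallest library, was the lowest in each of the 5 classes it holds. Single genes followed the same order on this scale: microglia were the lowest class for 22 members and astrocytes for 9, while OPCs were the highest for 16 and ependymal cells for 14.

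**Figure D1:**
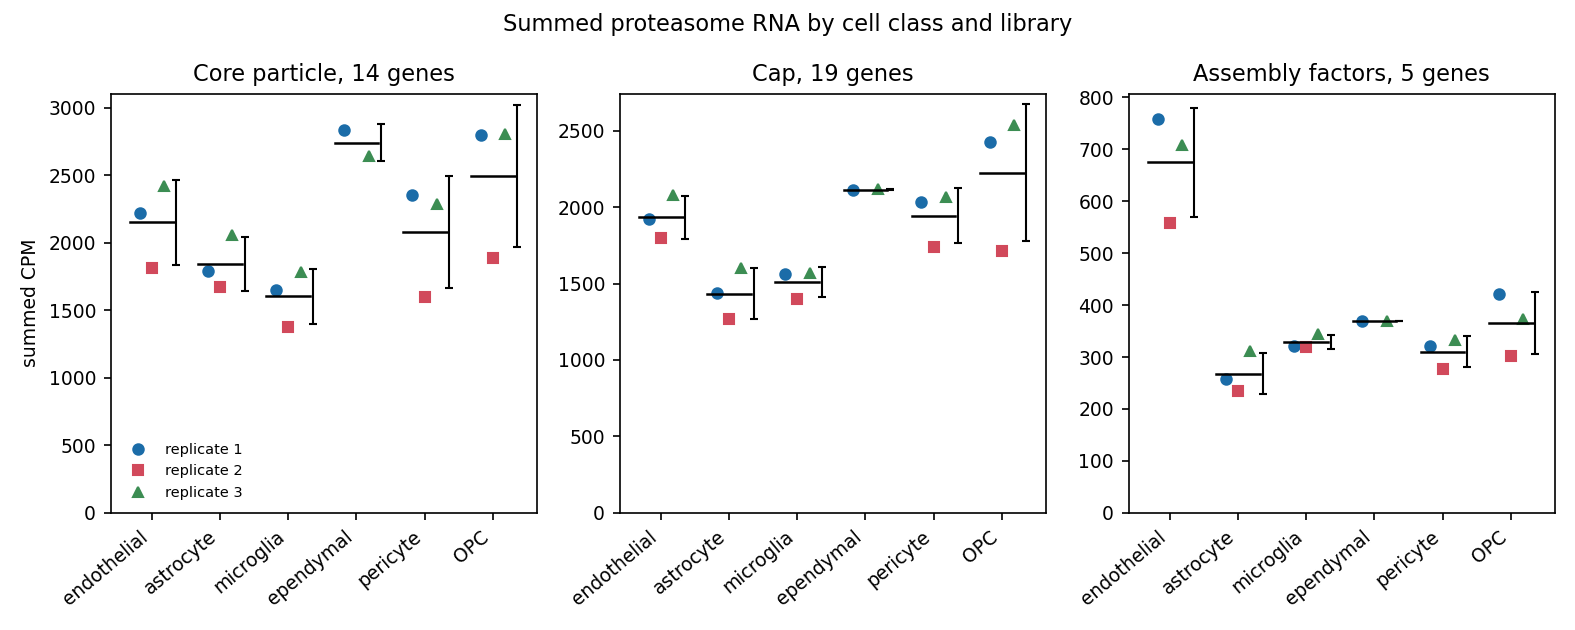
Summed CPM (y axis) of the 14 core, 19 cap and 5 assembly genes in each cell class (x axis). Points are libraries, horizontal lines are means and bars are SDs (n = 3, ependymal n = 2). Core and cap sums were lowest in astrocytes and microglia. The assembly sum was highest in endothelial cells, where Pomp was the only assembly factor called higher.

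Levels of the members differed less between classes than those of most genes. The highest class mean was 1.95 times the lowest in the median member, with 22 of 38 members (57.9%) under 2-fold. Over all 12526 genes tested the median was 7.76-fold, and 5.43% were under 2-fold. Of these genes, 2184 had a class at 0 CPM. The members were not matched to other genes of like level, so the part of low counts in this contrast was not tested. The narrowest range was that of Psmb1, a beta ring subunit, at 1.47-fold, and the widest was that of Psmg2, an assembly chaperone, at 3.997-fold. An F-test over the 6 classes (edgeR quasi-likelihood, adjusted over all genes) called 28 of 38 members (73.7%), against 91.2% of all genes tested.

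Each class was next set against the other 5, whose means counted equally, with TMM scaling, which assumes that most genes do not differ. Of the 38 members, 18 (47.4%) were higher in endothelial cells and 0 lower, where 32.5% of all genes were higher and 18.7% lower. In astrocytes 0 were higher and 6 (15.8%) lower, where 30.4% of all genes were higher and 18.4% lower. In microglia 15 (39.5%) were higher and 1 (2.63%) lower, beside 32.5% and 23.2% of all genes. In ependymal cells 5 (13.2%) were higher and 2 (5.26%) lower, beside 23.2% and 16.2%. In pericytes 0 were higher and 9 (23.7%) lower, beside 10.0% and 9.88%. In OPCs 0 were higher and 6 (15.8%) lower, beside 23.5% and 19.6%. The share of members called was above that of all genes for higher calls in endothelial cells and microglia and for lower calls in pericytes, and below it in every other class and direction. Where edgeR called 0 members, the count at an unadjusted p under 0.05 was 0 lower in endothelial cells, 1 higher in astrocytes, 0 higher in pericytes and 2 higher in OPCs, and DESeq2 called 1, 0, 0 and 3 there. Leaving out replicate 1 or replicate 2 left 7 higher calls in microglia. Leaving out replicate 1 or replicate 3 left 2 lower calls in astrocytes. In ependymal cells, with 1 library in each of these fits, 2 higher calls and 1 lower call were left without replicate 1 and 0 in either direction without replicate 3, where all 7 changes kept their sign. Leaving out replicate 1 left 4 lower calls in pericytes, leaving out replicate 2 left 1, and leaving out replicate 3 left 2.

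These counts depended on how the classes were scaled. With plain UMI totals in place of TMM factors, 1 member was higher and 28 were lower in microglia, and 20 were higher and 0 lower in OPCs. Under the 4 other scalings, 1 to 7 members were higher in endothelial cells, against 18 with TMM, 1 to 10 were higher in microglia, against 15, and 1 to 2 were lower in pericytes, against 9. With plain totals the median of all genes moved too, to -0.70 in microglia and 0.53 in OPCs on the log2 scale, against 0.03 and -0.03 with TMM. The medians of the members with plain totals were -0.48 in microglia and 0.38 in OPCs. The shift of the medians with plain totals was thus not particular to the proteasome. The shares of all genes called under the other scalings are not given, so the counts of members are not set against that background. Of the 62 calls in 228 pairs of member and class, 18 turned sign under at least 1 of 4 other scalings, and 11 calls, of 8 members, kept direction and significance under all of them. The account by role below leads with those 11. The other calls are given with TMM scaling. The members called in no class were Psma2, Psma4, Psma5, Psmb3, Psmd13, Psmd14, Psmg3 and Psmg4.

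**Figure D2:**
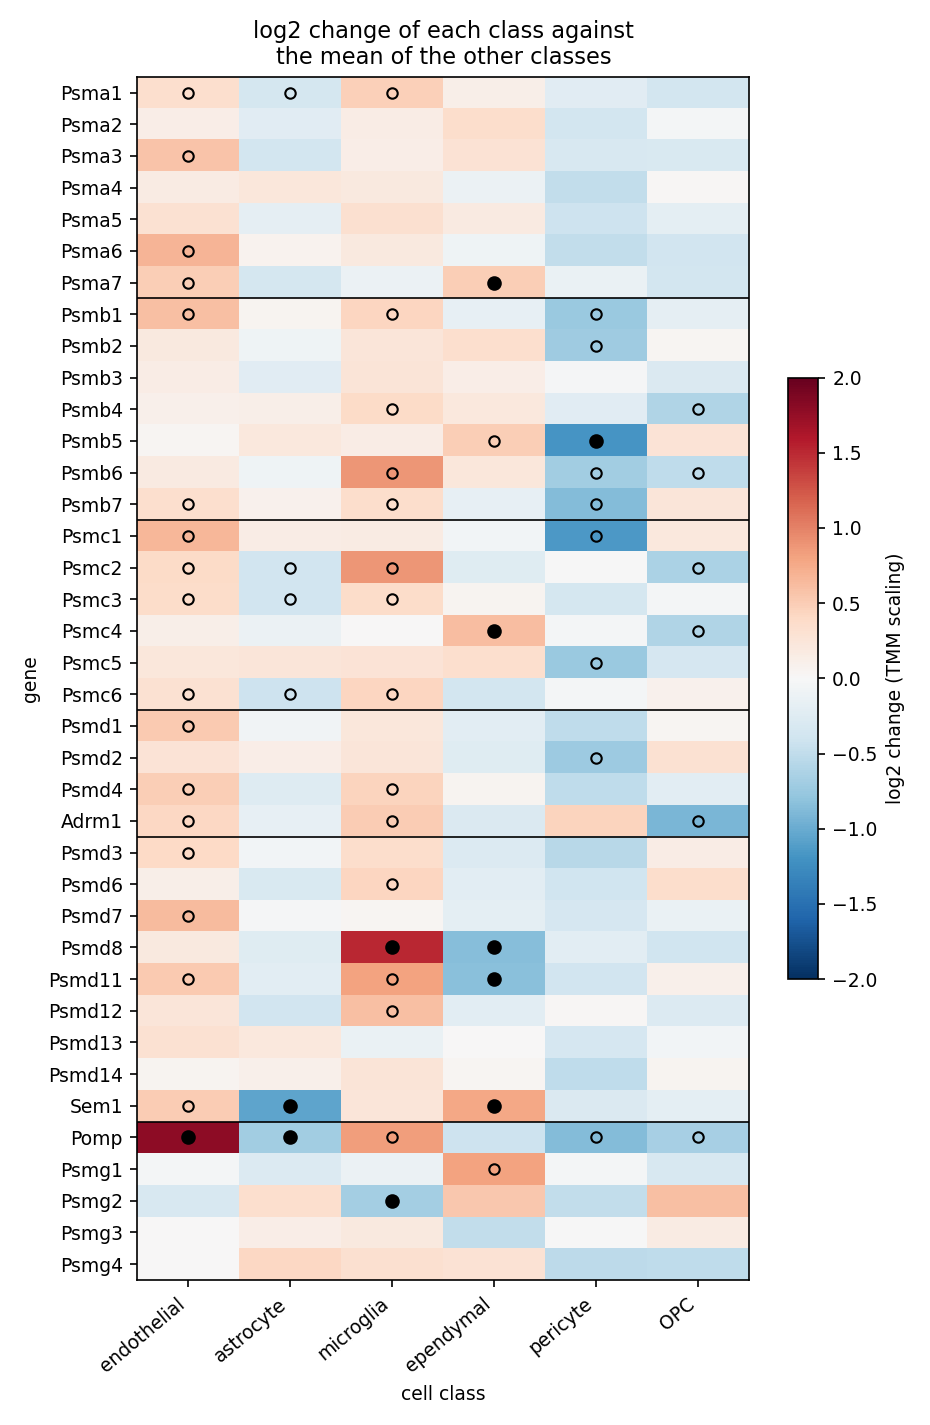
Log2 change (color, TMM scaling) of each of the 38 members (rows, in blocks by role) in each class against the mean of the other classes (columns). Circles mark adjusted p under 0.05, and filled circles mark the 11 calls that held under all 5 scalings, among them Pomp in endothelial cells (1.79) and Psmd8 in microglia (1.50).

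In the alpha ring, which gates the core, Psma7 was the member whose call held under all 5 scalings, in ependymal cells. It had 343 and 327 CPM in ependymal cells of replicates 1 and 3, against means of 125 in microglia, 155 in astrocytes, 218 in OPCs, 233 in endothelial cells and 245 in pericytes. A pericyte value of 332 in replicate 1 lay within the ependymal range, so the classes overlapped. The log2 change was 0.49 ± 0.18 (SE, adjusted p = 0.0321, higher in 2 of 2 libraries), and it was 0.55 without replicate 1 (adjusted p = 0.155) and 0.48 without replicate 3 (adjusted p = 0.276), each with 1 ependymal library. It also missed the threshold with 2 of 3 markers (0.53, adjusted p = 0.0730), without a filter on low counts (0.42, adjusted p = 0.137) and with no replicate block (0.68, adjusted p = 0.0572). Psma6, another alpha subunit, was higher in endothelial cells by 0.68 ± 0.14 (SE, adjusted p = 0.00012), in 3 of 3 libraries. That change was 0.26 when scaled to the summed proteasome UMIs (adjusted p = 0.121). In all, 4 of 7 alpha subunits were higher in endothelial cells, 1 in microglia and 1 in ependymal cells, and 1 was lower in astrocytes, beside 32.5%, 32.5%, 23.2% and 18.4% of all genes.

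In the beta ring, Psmb5, the chymotrypsin-like subunit and the target of proteasome inhibitors used in myeloma, was lowest in pericytes. It had 78.8, 79.0 and 104 CPM in pericytes of replicates 1, 2 and 3, from 14, 8 and 14 UMIs. The means of the other classes were 92.8 in microglia, 115 in endothelial cells, 137 in astrocytes, 200 in OPCs and 213 in ependymal cells. Pericyte and microglial values overlapped, while both ependymal values (224 and 202) lay above every pericyte value. The log2 change in pericytes was -1.18 ± 0.23 (SE, adjusted p = 0.000293, lower in 3 of 3 libraries), and the change in ependymal cells was 0.50 ± 0.17 (SE, adjusted p = 0.0224, higher in 2 of 2). The pericyte change was -0.88 with cells thinned to 2000 UMIs (adjusted p = 0.0753). The ependymal call held under 9 of 14 alternatives, and scaled to the summed proteasome UMIs the change was 0.41 (adjusted p = 0.0518).

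Psmb6, the caspase-like subunit, had 180, 170 and 229 CPM in microglia and 152, 98.7 and 215 in pericytes, and both ranges overlapped those of the other classes. Its log2 change was 0.88 ± 0.14 in microglia (SE, adjusted p = 7.84e-06) and -0.70 ± 0.21 in pericytes (SE, adjusted p = 0.0202). The microglial change was 0.13 with plain totals (adjusted p = 0.459), and the pericyte call was lost under all 4 other scalings. In OPCs the change of Psmb6 was -0.50 with TMM and 0.05 with plain totals, so its direction there depends on the scaling. Psmb7, the trypsin-like subunit, had 124, 39.5 and 51.8 CPM in pericytes, where it was lower, with a log2 change of -0.87 ± 0.26 (SE, adjusted p = 0.018). That pericyte call was also lost under all 4 other scalings. The small increases of Psmb7 in endothelial cells (0.34) and microglia (0.36) turned negative under at least 1 other scaling. Of the 7 beta subunits, 5 were lower in pericytes, 4 higher in microglia, 2 higher in endothelial cells, 1 higher in ependymal cells and 2 lower in OPCs, beside 9.88%, 32.5%, 32.5%, 23.2% and 19.6% of all genes. Of these pericyte calls, that of Psmb5 held under all 5 scalings. Those of Psmb1, Psmb2, Psmb6 and Psmb7 held with TMM alone. Fibroblast markers summed to 585 to 2863 CPM in pericytes, with 3 of 3 detected, and to 0.638 to 1.23 in microglia. Border macrophage markers summed to 19.7 to 1497 in pericytes. The part of either in the pericyte values was not tested.

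Psmb1, a structural beta subunit, was the member with the narrowest range of class means. It averaged 215 ± 33.9 CPM in endothelial cells, 172 ± 6.47 in astrocytes, 148 ± 30.8 in microglia, 148 ± 34.3 in pericytes and 217 ± 46.2 in OPCs (SD, n = 3 each), and 190 ± 23.4 in ependymal cells (SD, n = 2). Every class overlapped at least 1 other. It was called higher in endothelial cells (0.60 ± 0.13, adjusted p = 0.000472; SE), which was lost when scaled to the summed proteasome UMIs (0.16, adjusted p = 0.335). It was called lower in pericytes (-0.74 ± 0.20, adjusted p = 0.00932; SE), which was lost under all 4 other scalings. Its increase in microglia (0.43) reversed to -0.32 with plain totals.

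The 6 ATPases of the base form the ring that unfolds substrates. Psmc4 had 96.0 and 154 CPM in ependymal cells of replicates 1 and 3. The other classes had means of 52.8 in microglia, 64.2 in OPCs, 70.9 in astrocytes, 73.8 in endothelial cells and 100 in pericytes. In pericytes Psmc4 overlapped ependymal cells, with a mean above the ependymal value of replicate 1. Its log2 change in ependymal cells was 0.62 ± 0.19 (SE, adjusted p = 0.0106), and with replicate 1 as the lone ependymal library it was 0.39 (adjusted p = 0.519). Psmc2 showed the most calls of the ATPases: it was higher in microglia (0.88 ± 0.13, adjusted p = 1.8e-06) and endothelial cells (0.38), and lower in astrocytes (-0.38) and OPCs (-0.63 ± 0.19, adjusted p = 0.00729; SE). The endothelial change turned negative under 1 of the other scalings. With plain totals the microglial change was 0.13 (adjusted p = 0.422) and the OPC change -0.08 (adjusted p = 0.771). Scaled to the summed proteasome UMIs, the astrocyte change was -0.16 (adjusted p = 0.41). Psmc6 in astrocytes was lower, with a log2 change of -0.42 ± 0.14 (SE, adjusted p = 0.0136), at 76.5, 67.3 and 68.0 CPM, below all 3 values of pericytes and of OPCs. That change was -0.20 when scaled to the summed proteasome UMIs (adjusted p = 0.264). Psmc1 was higher in endothelial cells (0.67 ± 0.16, adjusted p = 0.000677) and lower in pericytes (-1.15 ± 0.34, adjusted p = 0.0173; SE), where it rested on 8, 5 and 3 UMIs.

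Among the other base subunits are the ubiquitin receptors Psmd4 and Adrm1. Psmd4 had a narrow range, with means of 94.4 CPM in astrocytes and 147 in ependymal cells as its extremes. It was higher in endothelial cells by 0.49 ± 0.13 (SE, adjusted p = 0.00222), and its increase in microglia (0.44) reversed to -0.30 with plain totals. The endothelial call held under 1 of the 4 other scalings. Adrm1, which also anchors the deubiquitinase Uchl5, had 36.6, 27.4 and 51.1 CPM in OPCs, against 67.5, 69.1 and 126 in pericytes, without overlap. Its log2 change in OPCs was -0.91 ± 0.22 (SE, adjusted p = 0.00161, lower in 3 of 3 libraries), while that in pericytes, 0.44 ± 0.26, did not pass the test (SE, adjusted p = 0.267). The OPC change was -0.36 with plain totals (adjusted p = 0.181). Adrm1 was also called higher in endothelial cells (0.41) and microglia (0.50), and both turned negative under at least 1 other scaling.

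The lid, which removes ubiquitin chains, held the members with the clearest differences of the cap. Sem1 is a small acidic lid subunit that is also part of complexes outside the proteasome, among them one with Brca2. It lies at chr6:6557294-6578663 (mm10, minus strand). It had 140, 154 and 174 CPM in astrocytes of replicates 1, 2 and 3, and every value of the other 5 classes, from 219 upwards, was higher. The log2 change in astrocytes was -1.05 ± 0.17 (SE, adjusted p = 1.12e-05), and it lay between -1.22 and -0.85 over all 14 alternatives, each of which kept the call. In ependymal cells Sem1 had 561 and 532 CPM, above every value of the other classes, of which the highest was 471 in OPCs. That change was 0.77 ± 0.18 (SE, adjusted p = 0.00124, higher in 2 of 2 libraries), and it was 0.74 without replicate 3 (adjusted p = 0.0751, 1 ependymal library).

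Psmd8, a lid subunit that helps hold the lid on the base, lies at chr7:29174188-29180701 (mm10, minus strand) and was the member that stood out in microglia. It had 209, 157 and 156 CPM in microglia, against means of 77.2 in ependymal cells, 90.7 in astrocytes, 109 in endothelial cells, 123 in OPCs and 132 in pericytes. The microglial values lay above those of all other classes in every library. The log2 change was 1.50 ± 0.14 with TMM (SE, adjusted p = 2.7e-10) and 0.75 with plain totals, and all 14 alternatives kept the call. In ependymal cells Psmd8 had 75.6 and 78.8 CPM, below every value of the other classes, with a change of -0.84 ± 0.22 (SE, adjusted p = 0.00312). It rested on 26 and 60 UMIs. The change was -0.77 without replicate 1 (adjusted p = 0.0634) and -0.91 without replicate 3 (adjusted p = 0.0665), each with 1 ependymal library, and -0.75 with cells thinned to 2000 UMIs (adjusted p = 0.0870).

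Psmd11, a lid subunit that supports assembly of the holoenzyme, had 72.7 and 56.5 CPM in ependymal cells and 139, 123 and 144 in OPCs, without overlap between these classes. Astrocytes, at 79.3, 56.5 and 84.6, overlapped ependymal cells. Its change in ependymal cells was -0.84 ± 0.23 (SE, adjusted p = 0.00556), and it was -0.76 without replicate 3 (adjusted p = 0.145, 1 ependymal library). Psmd14, the metalloprotease of the lid that frees ubiquitin chains, was called in no class, with means between 34.6 CPM in microglia and 57.4 in OPCs. Its direction in microglia depended on the scaling (0.25 with TMM, -0.48 with plain totals). Of the 9 lid genes, 4 were higher in endothelial cells and 4 in microglia, beside 32.5% of all genes in each class. In ependymal cells 1 was higher and 2 were lower, beside 23.2% and 16.2%, and 1 was lower in astrocytes, beside 18.4%.

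Among the assembly factors, Pomp carried the largest log2 change of all 38 members with TMM scaling, in endothelial cells. Pomp lies at chr5:147860461-147876456 (mm10, plus strand) and encodes the maturation factor that joins half-proteasomes and becomes the first substrate of the finished core. It had 673, 483 and 603 CPM in endothelial cells of replicates 1, 2 and 3, from 14029, 2009 and 7500 UMIs. The other class means were 151 ± 37.7 in astrocytes, 192 ± 47.7 in pericytes, 228 ± 43.3 in OPCs and 256 ± 14.4 in microglia (SD, n = 3 each), and 227 ± 7.49 in ependymal cells (SD, n = 2). No value of another class reached the lowest endothelial value. The endothelial change was 1.79 ± 0.13 on the log2 scale (SE, adjusted p = 5.75e-12), and 1.35 to 1.95 over the 14 alternatives, which all kept the call.

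Within the 38 genes, a share that does not depend on the scaling, Pomp took 13.7%, 11.6% and 11.6% of the UMIs in endothelial cells. It took 7.19%, 7.81% and 7.33% in microglia and 3.49 to 4.90% in every library of the other 4 classes. The assembly factors together took 14.2% in endothelial cells, 9.58% in microglia and 7.07 to 7.54% in the other classes on average. Pomp was the 1 of the 5 factors called higher in endothelial cells, where their median log2 change was 0.005 with TMM. The mean endothelial shares of Psmg1, Psmg2, Psmg3 and Psmg4 were 0.345%, 0.379%, 0.375% and 0.759%, against 0.403%, 0.776%, 0.610% and 1.53% in astrocytes. The high endothelial sum is thus that of Pomp. In astrocytes Pomp had 158, 111 and 185 CPM and was lower, with a log2 change of -0.69 ± 0.16 (SE, adjusted p = 0.000681, lower in 3 of 3 libraries), which all 14 alternatives kept. Endothelial cells also held the most immediate early RNA, 4.44 to 5.39% of UMIs against 0.200 to 0.356% in astrocytes, and the most haemoglobin RNA, 1.05 to 1.83%. The part of either in the Pomp values was not tested.

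The other assembly factors are the chaperones Psmg1 to Psmg4, which guide the alpha ring. Psmg2 had 6.89, 15.7 and 14.03 CPM in microglia, from 45, 14 and 88 UMIs, and 51.8, 54.8 and 39.7 in OPCs, without overlap. Its share of the member UMIs was 0.195 to 0.506% in microglia and 0.334 to 0.421% in endothelial cells, so these classes overlapped. Its microglial change was -0.67 ± 0.22 with TMM (SE, adjusted p = 0.00982) and -1.41 with plain totals. The call was lost without replicate 1 (-0.44, adjusted p = 0.272) and with cells thinned to 2000 UMIs (-0.22, adjusted p = 0.658). Psmg1, its partner, was higher in ependymal cells by 0.80 ± 0.30 (SE, adjusted p = 0.0353), from 9 and 27 UMIs. That call held under 7 of 14 alternatives.

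**Figure D3:**
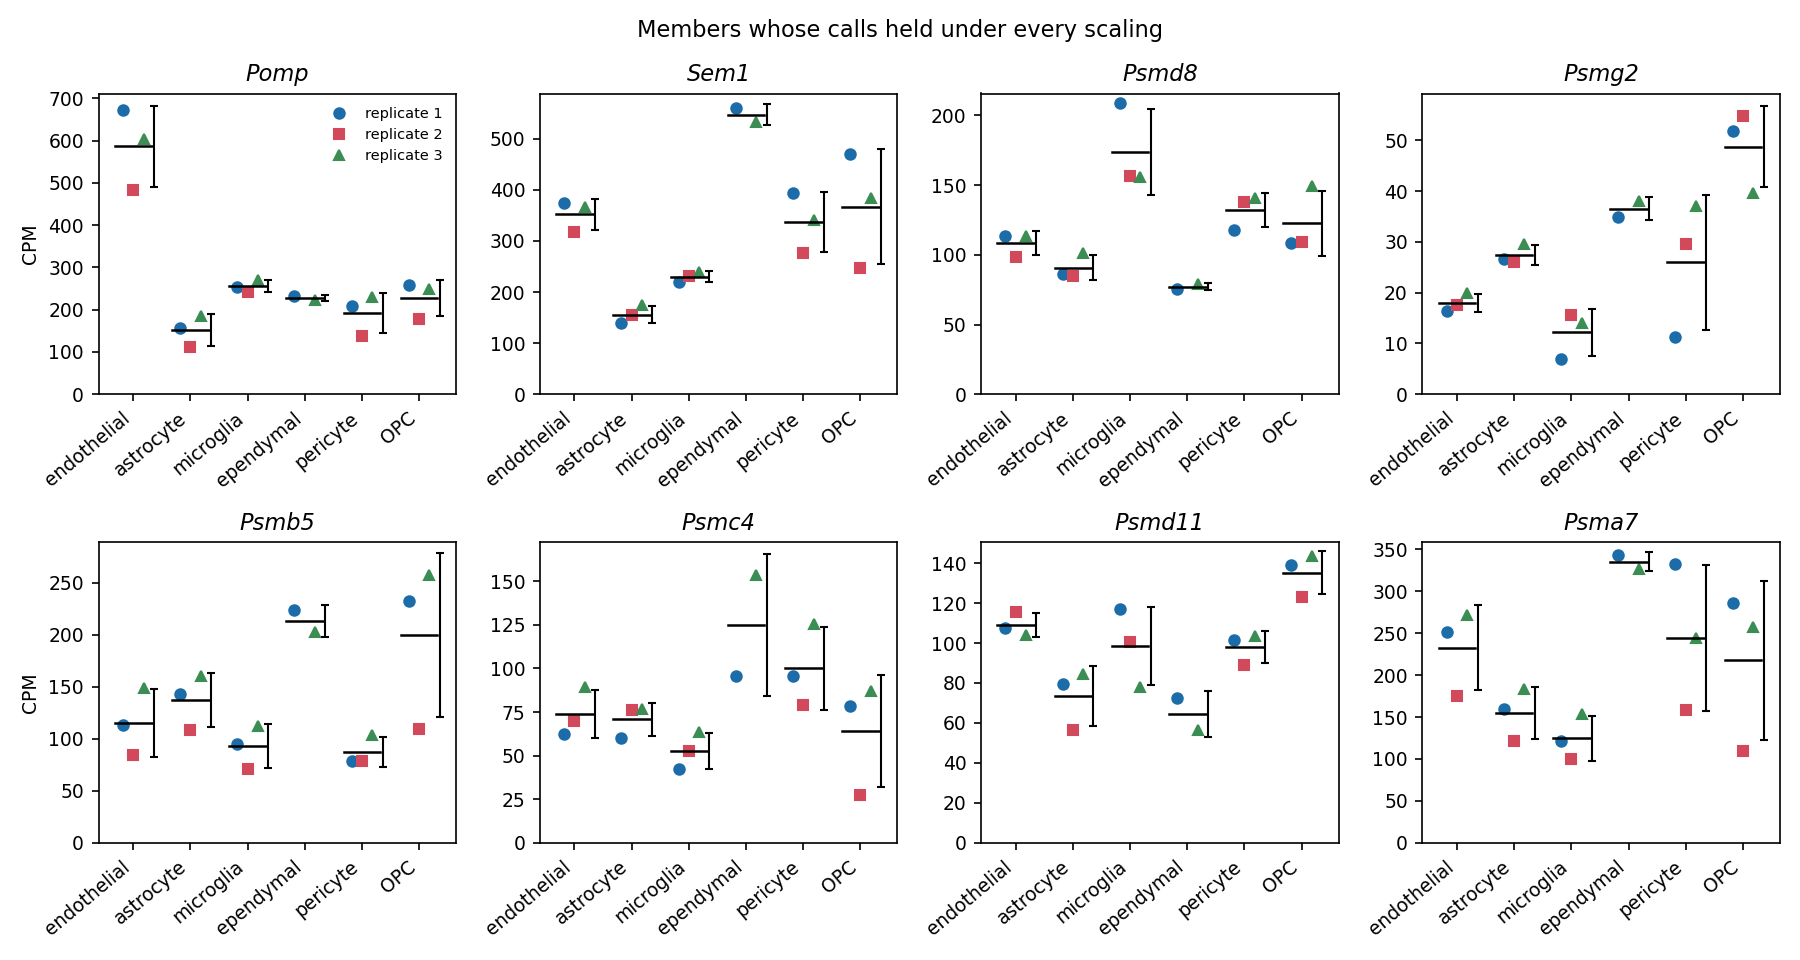
CPM (y axis) of the 8 members with calls that held under all 5 scalings, by cell class (x axis). Points are libraries, lines are means and bars are SDs. Endothelial Pomp (483 to 673) and microglial Psmd8 (156 to 209) stood above the other classes in all 3 libraries, and astrocytic Sem1 (140 to 174) below.

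The inducible subunits are not among the 38 genes, but they replace 3 of them. Psmb8, which takes the place of Psmb5, had 199, 139 and 251 CPM in microglia and 172, 107 and 202 in endothelial cells, against 27.2, 30.4 and 74.6 in astrocytes and 30.3, 13.7 and 45.4 in OPCs. Its log2 change was 2.43 ± 0.16 in microglia (SE, adjusted p = 6.35e-13), 1.60 ± 0.17 in endothelial cells (SE, adjusted p = 4.79e-09) and -1.999 ± 0.28 in OPCs (SE, adjusted p = 1.37e-06). Each of these held under all 14 alternatives. In astrocytes it was lower, with a log2 change of -0.85 ± 0.21 (SE, adjusted p = 0.00121), and that call was lost without replicate 1 (-0.44, adjusted p = 0.180).

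Psmb9, which takes the place of Psmb6, was higher in endothelial cells by 2.67 ± 0.21 (SE, adjusted p = 1.67e-11) and in microglia by 2.24 ± 0.23 (SE, adjusted p = 2.24e-09). In OPCs it had 1, 0 and 5 UMIs in all. Psmb10, which takes the place of Psmb7, was higher in endothelial cells by 1.14 ± 0.15 (SE, adjusted p = 2.4e-07) and in microglia by 1.12 ± 0.16 (SE, adjusted p = 6.66e-07). The rises of both genes in both classes held under all 14 alternatives.

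The UMIs of each inducible subunit were set beside those of its counterpart, which gives a share that no scaling of the library changes. As 3′ counts of different genes, these shares compare classes and are not proportions of protein. Psmb8 made up 67.6%, 66.3% and 69.1% of the UMIs of Psmb8 and Psmb5 in microglia, 60.3%, 56.0% and 57.6% in endothelial cells, and 11.5%, 11.1% and 15.0% in OPCs. The values of these 3 classes did not overlap. Astrocytes had 16.0%, 21.9% and 31.7%, with replicate 3 the highest, and the exact 95% intervals of replicates 1 (13.8 to 18.4%) and 3 (29.3 to 34.3%) did not meet. The intervals cover counting error only.

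Psmb9 made up 33.1 to 39.6% of the UMIs of Psmb9 and Psmb6 in endothelial cells, 21.1 to 23.9% in microglia and 4.59 to 10.9% in astrocytes, again without overlap between these classes. For Psmb10 and Psmb7 the classes overlapped, at 42.4 to 59.3% in endothelial cells, 49.1 to 53.4% in microglia and 28.4 to 52.8% in astrocytes, and OPCs were lowest at 14.3 to 31.7%. In astrocytes replicate 3 was the highest library for all 3 subunits. Microglial class markers summed to 97.8 CPM in astrocytes and 11719 in microglia on average, and their part in the astrocytic values was not tested.

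**Figure D4:**
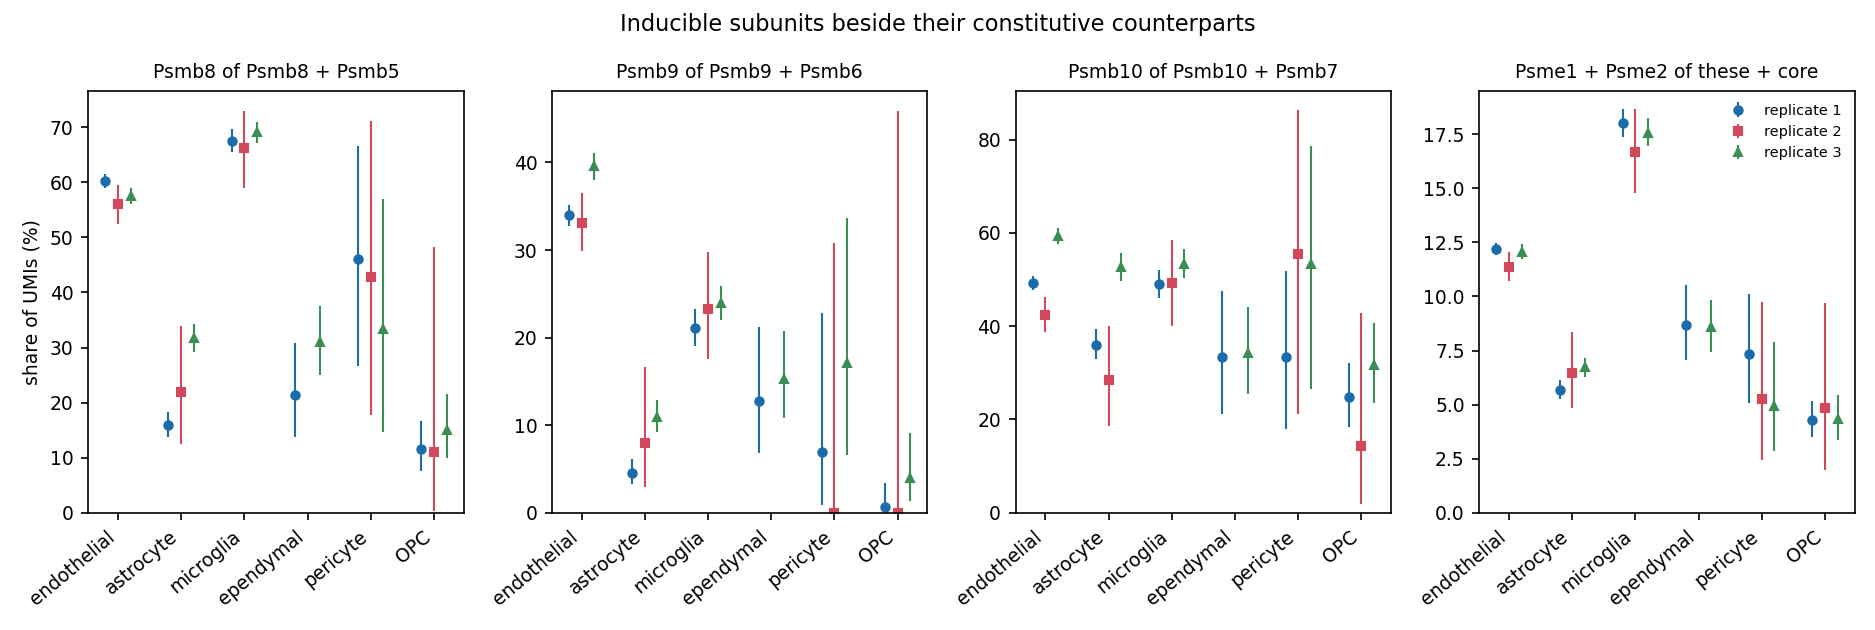
Share of UMIs (y axis, %) of Psmb8, Psmb9 and Psmb10 in the sum with the subunit each replaces, and of Psme1 with Psme2 in the sum with the core, by cell class (x axis). Points are libraries and bars are exact 95% binomial intervals. Microglia were highest for Psmb8 (66.3 to 69.1%) and for Psme1 with Psme2 (16.7 to 18.02%), and endothelial cells for Psmb9 (33.1 to 39.6%).

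Psme1 and Psme2 form the PA28 cap, an alternative to the ATP-dependent cap that cytokines induce. Both were higher in microglia (1.83 ± 0.13, adjusted p = 3.5e-12, and 1.64 ± 0.15, adjusted p = 3.49e-10; SE) and in endothelial cells (1.06 ± 0.14, adjusted p = 2.25e-07, and 0.93 ± 0.15, adjusted p = 8.17e-06; SE). Their share of the sum with the core was 18.02%, 16.7% and 17.6% in microglia, 12.2%, 11.4% and 12.1% in endothelial cells and 5.68%, 6.44% and 6.72% in astrocytes. The values of these classes did not overlap. OPCs had 4.27%, 4.83% and 4.33%.

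Single cells were also thinned to 2000 UMIs each. Psmb8 was then detected in 31.96%, 19.5% and 33.2% of microglia, in 27.9%, 16.1% and 30.6% of endothelial cells and in 4.63%, 4.08% and 12.01% of astrocytes, in replicates 1, 2 and 3. Without thinning the shares were 68.8%, 66.3% and 68.0% in microglia and 10.8%, 11.6% and 28.2% in astrocytes, at median depths of 7106 to 8526 UMIs in microglia and 4790 to 7847 in astrocytes. OPCs, the class with the lowest Psmb8 level, had 2.54%, 10.0% and 6.58% after thinning, where the value of replicate 2 is 1 of 10 cells. Microglia and endothelial cells lay above astrocytes and OPCs in each library, while astrocytes and OPCs had no fixed order. Psmb5 was detected in 16.5%, 10.3% and 20.7% of thinned microglia and 21.3%, 22.4% and 23.8% of thinned astrocytes.

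Of 38 other genes of the ubiquitin-proteasome pathway, 36 passed the filter on low counts, and 20 were higher and 1 was lower in endothelial cells. In microglia 19 were higher and 4 lower, in astrocytes 2 were higher and 11 lower, and in OPCs 2 were higher and 15 lower. In ependymal cells 4 were higher and 2 lower, and in pericytes 0 were higher and 5 lower. The shares of all genes given above for each class and direction apply here too. Psma8 and Psmb11, which replace core subunits in testis and thymus, did not pass the filter.

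Of the transcription factors, Nfe2l2 was highest in microglia, at 384, 674 and 484 CPM, and lowest in OPCs, at 8.83, 13.7 and 9.46. Its log2 change was 3.92 ± 0.18 in microglia (SE, adjusted p = 1.84e-16) and -4.21 ± 0.39 in OPCs (SE, adjusted p = 1.25e-09). Nfe2l1 was higher in endothelial cells by 1.24 ± 0.13 (SE, adjusted p = 1.14e-08), at 159, 143 and 142 CPM, and lower in OPCs, with a log2 change of -1.13 ± 0.21 (SE, adjusted p = 8.2e-05). Pericytes, at 118, 128 and 192, overlapped endothelial cells. These 4 calls held under all 14 alternatives.

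The shuttle factor Ubqln2, which carries ubiquitinated proteins to the proteasome, was higher in astrocytes by 0.92 ± 0.14 (SE, adjusted p = 2.84e-06) and lower in microglia, with a log2 change of -0.90 ± 0.16 (SE, adjusted p = 1.99e-05). AI314180, a synonym in RefSeq of the proteasome adaptor Ecpas, was the other pathway gene higher in astrocytes, by 0.61 ± 0.17 (SE, adjusted p = 0.00357).

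Of the Zfand genes, whose proteins bind the proteasome or ubiquitin under stress, Zfand2a was higher in endothelial cells by 3.39 ± 0.21 (SE, adjusted p = 1.64e-13), at 101, 126 and 64.4 CPM. Zfand5 was higher in microglia by 2.06 ± 0.17 (SE, adjusted p = 3.48e-11) and lower in astrocytes, with a log2 change of -0.96 ± 0.21 (SE, adjusted p = 0.000313). Usp14, the deubiquitinase of the base, was higher in microglia by 0.86 ± 0.16 (SE, adjusted p = 4.14e-05), and in OPCs by 0.55 ± 0.21 (SE, adjusted p = 0.0373). The microglial increase was 0.12 with plain totals (adjusted p = 0.608), and the OPC call held under 7 of 14 alternatives.

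Ependymal cells stood apart in the chaperones that assemble the base. Psmd10, also known as gankyrin, had 55.2 and 61.7 CPM in ependymal cells, and Psmd9 had 108 and 104, both above every value of the other classes. The log2 changes were 1.62 ± 0.25 (SE, adjusted p = 8.6e-06) and 1.30 ± 0.21 (SE, adjusted p = 9.75e-06), and both calls held under all 14 alternatives. The third of these chaperones in the list, Psmd5, was also called higher there (0.91 ± 0.27, adjusted p = 0.00874; SE). That call was lost with 2 of 3 markers (0.34, adjusted p = 0.645), and in the fits with 1 ependymal library (0.92, adjusted p = 0.0964, and 0.99, adjusted p = 0.193). Psmd10 was also called higher in microglia (0.77 ± 0.19, adjusted p = 0.00111; SE), which was 0.02 with plain totals. Smooth muscle markers summed to 535 to 684 CPM in ependymal cells, with 3 of 3 detected, against 18.5 to 26.7 in astrocytes, and their part in the ependymal values was not tested.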

How the data were processed

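The authors' deposited tables hold raw UMI counts per gene and cell barcode. Per the submitters' processing notes, Cell Ranger and mm10 were used, with no version given. Counts were thus set by the authors' alignment, and reads shared with near-identical copies may be missing. GENCODE vM21 gives 3 members (Psmb5, Psmb6 and Psmb7) a named pseudogene and 9 members an overlapping gene on the same strand.

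Hyphens and leading digits of 2411 symbols were restored. Barcodes with under 500 UMIs, under 300 genes or over 20% mitochondrial UMIs were dropped. Scrublet in scanpy 1.11.5 (assumed doublet rate 0.06) removed 172, 9 and 135 doublets, which left 6240, 945 and 4930 cells in replicates 1, 2 and 3. Classes needed all 3 of their markers. Cells with all markers of several classes (243, 37 and 342) were left out, and 4349, 591 and 3276 cells took a class.

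Each class with 10 or more cells in a library gave 1 sum of UMIs, 17 in all. Levels are CPM of that sum. edgeR 4.0.16 in R 4.3.3 tested each class against the other 5, weighted equally, by its quasi-likelihood test, with TMM, filterByExpr and the library as a block, since all classes of a library share 1 preparation. P-values were adjusted by Benjamini-Hochberg over 12526 genes, with a threshold of 0.05. All 38 members passed the filter. The tests were checked on simulated data in which all classes shared 1 profile and a small set of genes was changed in astrocytes alone. Most genes differ between the real classes, so that check could not cover the dependence on scaling. Members, gene lists and tests were chosen with earlier results of these data known.

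Text genes followed a rule: 8 members by role (catalytic subunits, ubiquitin receptors, Psmd14, Sem1 and Pomp), up to 3 called members and 2 pathway genes per class and direction with 1 sign in every library, the members of narrowest and widest range, and the inducible subunits with Psme1 and Psme2. Psma7, Nfe2l1 and Psmd5 were added after their values were seen. Not all genes the rule gave are printed. Of the alternatives, plain totals and scaling to the summed proteasome UMIs, were added after seeing the data. Shares have exact binomial 95% intervals, for counting error only.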

Additional observations from a re-analysis of the deposited data

How the results depend on the processing

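Over 14 alternatives, 110 of the counts of called members stayed within 1.5 times the main count, 25 grew and 47 shrank, and the summed level moved by more than 1 SD in 6 cases. In this paragraph, a class or direction not named for an alternative stayed within 1.5 times its main count. The shares of all genes called under each alternative are not given, so these counts are not set against that background. With plain library totals the counts were 5 higher and 1 lower in endothelial cells, 14 lower in astrocytes, 1 higher and 28 lower in microglia, 8 higher in ependymal cells, 1 higher and 1 lower in pericytes, and 20 higher and 0 lower in OPCs. Scaled to the summed proteasome UMIs, they were 1 higher and 3 lower in endothelial cells, 6 and 2 in astrocytes, 5 and 3 in microglia, 3 higher in ependymal cells, 1 and 1 in pericytes, and 5 and 2 in OPCs. With edgeR RLE scaling they were 5 higher and 1 lower in endothelial cells, 6 higher in microglia, 9 higher in ependymal cells, 2 lower in pericytes and 2 higher in OPCs. DESeq2 gave 7 higher and 1 lower in endothelial cells, 11 lower in astrocytes, 10 higher and 2 lower in microglia, 11 higher and 2 lower in ependymal cells, 2 lower in pericytes, and 3 higher and 6 lower in OPCs. Without a filter on low counts, astrocytes had 1 higher and 2 lower and ependymal cells 2 higher. With no replicate block, endothelial cells had 9 higher, astrocytes 3 lower, and 17 members were called in any class. With 2 of 3 markers, microglia had 9 higher and 0 lower, ependymal cells 3 higher and pericytes 2 lower. The stricter cell filter gave 8 higher in microglia, 3 lower in pericytes, and 2 higher and 3 lower in OPCs. With doublets kept, 1 was higher in astrocytes. Thinned to 2000 UMIs per cell, 11 were higher in endothelial cells, 9 higher and 0 lower in microglia, 3 higher and 1 lower in ependymal cells, 3 lower in pericytes and 3 lower in OPCs. The summed level was 6006 CPM in ependymal cells with 2 of 3 markers and 4014 in astrocytes with the stricter cell filter. Without mitochondrial, ribosomal protein and haemoglobin genes it was 5654 in endothelial cells, 4185 in astrocytes, 4230 in microglia and 5952 in ependymal cells, with 10 members lower in astrocytes and 2 lower in pericytes. The cause of these shifts was not tested.

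Named members reversed with plain totals in microglia (log2 -0.24 for Adrm1, -0.32 for Psmb1, -0.59 for Psmb5, -0.39 for Psmb7, -0.48 for Psmd14, -0.30 for Psmd4 and -0.50 for Sem1) and in OPCs (0.38 for Psmb1, 0.0548 for Psmb6 and 0.38 for Sem1). Scaled to the summed proteasome UMIs, Adrm1 (-0.0175), Psmb5 (-0.39) and Psmb7 (-0.0889) reversed in endothelial cells. Leaving out each replicate in turn gave 12 to 14 members higher and 0 lower in endothelial cells, 0 to 1 higher and 2 to 6 lower in astrocytes, and 7 to 11 higher and 0 to 1 lower in microglia. It gave 0 to 4 higher and 0 to 2 lower in ependymal cells, 0 higher and 1 to 4 lower in pericytes, 0 to 1 higher and 4 to 6 lower in OPCs, and 19 to 22 called in any class. In ependymal cells, then 1 library, 2 were higher without replicate 1 and 0 without replicate 3. In astrocytes 2 were lower without replicate 1 and 2 without replicate 3. In microglia 7 were higher without replicate 1 and 7 without replicate 2. The summed level ranged over 4532 to 5053 CPM in endothelial cells, 3332 to 3729 in astrocytes, 3316 to 3615 in microglia, 5130 to 5321 in ependymal cells, 4148 to 4694 in pericytes and 4775 to 5679 in OPCs. Pericytes and OPCs rest on 107 and 213 cells, which limits what their counts can show.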
